A study of Mus musculus with 2 samples.

Results

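Klf13 is a mouse gene on chromosome 7 whose messenger RNA is a source of piRNA-size small RNAs in the young testis. The data described here are the sequences of 18 to 40 nt that matched a GENCODE M21 transcript of Klf13 exactly, on either strand, over their whole length. Klf13 was 1 of 24205 protein-coding and long noncoding genes with sense reads of 24 to 30 nt. It yielded 3323 distinct sense sequences, of which 1645 were read in Tdrkh-/- and 2280 in Tdrkh+/-, with 602 in both. The gene was selected on its read numbers at 24 to 30 nt and 31 to 37 nt in these libraries, so its ratios at those lengths are given as a description.

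Small RNAs were sequenced from whole testes at 11 days after birth, as 1 Tdrkh-/- library and 1 Tdrkh+/- library, each from 5 pooled pairs of testes. In Tdrkh-/- mice both alleles of Tdrkh lacked exons 2 to 4, which include the start codon, after excision of floxed exons by EIIa-Cre. Tdrkh+/- mice carried the same excised allele once and served as the controls, so no wild-type testis was compared. Mice of both genotypes were on a C57Bl6/129 background, and EIIa-Cre was bred out by crossing heterozygotes. Of 2 independent knockout lines, the line behind the libraries is not given in the sources used here. Since each genotype had 1 library, differences could not be set against a spread between replicates and no test was run. Intervals are at the 95% level and reflect counting error alone, because the reads had no molecular identifiers and are not independent molecules.

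piRNAs are small RNAs bound by PIWI proteins of the germ line. In primary piRNA production a long single-stranded precursor, often the 3′ untranslated region (3′ UTR) of a messenger RNA before meiosis, is cut into pieces that mostly start with U, and their 3′ ends are then shortened to a fixed length and methylated. TDRKH, with KH and Tudor domains, is a protein of the outer mitochondrial membrane that binds PIWI proteins, and its silkworm counterpart Papi is known for assisting this 3′ end shortening. KLF13 itself is a zinc finger transcription factor that binds GC-rich promoter elements and is known for raising Ccl5 in T lymphocytes. No PIWI protein was pulled down for these libraries, so "piRNA-size" below means a length of 24 to 30 nt and nothing more.

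Most Klf13 reads came from a short stretch of the 3′ UTR, and the following sequences show how its reads nested. They are written 5′ to 3′ as deposited, with T for U, and capitals mark position 1, where primary piRNAs carry U, and position 10. All lie on the minus strand of chromosome 7 (GRCm38) in exon 2, within the 3′ UTR, and their names give the first and last base on the 6396-nt reference transcript. The 3 commonest sequences of this stretch began at adjacent bases and ended at the same base, at chr7:63888025-63888052, chr7:63888025-63888051 and chr7:63888025-63888050:
Klf13 4695 to 4722: TttcaagacGaatgaatgcctcggcccc
Klf13 4696 to 4722: TtcaagacgAatgaatgcctcggcccc
Klf13 4697 to 4722: TcaagacgaAtgaatgcctcggcccc
The 28-nt sequence from 4695 had 307 reads in Tdrkh-/- and 16903 in Tdrkh+/-. The 27-nt sequence from 4696 had 2736 reads in Tdrkh-/- and 57334 in Tdrkh+/-. The 26-nt sequence from 4697 had 1582 reads in Tdrkh-/- and 38820 in Tdrkh+/-. Each was scarcer in Tdrkh-/-, and with adjacent starts and a shared last base they differed in length alone. They were picked as commonest over both libraries together, a choice that favours sequences high in Tdrkh+/-. Some other sequences of the stretch were commoner in Tdrkh-/-, such as that from 4696 to 4723, with 1366 reads there and 300 in Tdrkh+/-.

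Sequences from elsewhere in the 3′ UTR show the range of behaviour among single 5′ ends, from chr7:63891028-63891055 (from 1692), chr7:63889182-63889207 (from 3540), chr7:63887204-63887231 (from 5516), chr7:63886980-63887008 (from 5739) and chr7:63886518-63886547 (from 6200):
Klf13 1692 to 1719: TcaattgtgGttctctgccctttggcct
Klf13 3540 to 3565: TgcacacggGaaggataaaaggactc
Klf13 5516 to 5543: TatttagaaAcaaacaggatggcagaga
Klf13 5739 to 5767: TacgtccctTgtgactcaagacactgcct
Klf13 6200 to 6229: TtacagttgTacagtttcccaatctggcct
The sequence from 5739 stands for ends that were far lower in Tdrkh-/-, with 109 reads there and 2937 in Tdrkh+/-. The sequence from 1692 had 97 reads in Tdrkh-/- and 2872 in Tdrkh+/-, and that from 3540 had 136 and 1760, at ends where longer reads prevailed in Tdrkh-/-. The sequence from 5516 had 9 reads in Tdrkh-/- and 82 in Tdrkh+/-, at an end with few piRNA-size reads in either genotype and many long ones in Tdrkh-/-. The sequence from 6200 was higher in Tdrkh-/-, with 594 reads against 39 in Tdrkh+/-, and it also matches Tanc2, so its reads cannot be assigned to Klf13 alone. All 5 begin with U, and a single one, that from 5516, has A at position 10.

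The libraries held 60973266 reads in Tdrkh-/- and 43172204 in Tdrkh+/-. The piRNA-size class held 24.2% of the Tdrkh-/- and 71.7% of the Tdrkh+/- library. Levels are given per 1000 microRNA reads (18 to 25 nt reads in annotated hairpins), of which there were 2482747 in Tdrkh-/- and 2359299 in Tdrkh+/-. The deleted exons 2 to 4 of Tdrkh had 0 sense reads in Tdrkh-/-, a limit of 3 reads, and 17 in Tdrkh+/-. The labelled tissue carried its own microRNAs. Of X-linked germ line microRNAs, 5 of 5 were found, and they summed to 12.4% of the microRNA total in Tdrkh-/- and 10.3% in Tdrkh+/-. Mir470, Mir871 and Mir741 were higher in Tdrkh-/-, and Mir878 and Mir463 lower. The 3 of 3 of somatic testis cells summed to 3.64% and 3.98%. Nearly all of this was Mir143 of smooth muscle (3.59% and 3.93%), while Mir202 of Sertoli cells had 0.0318% and 0.0283%. Markers of other tissues summed to 0.0056% in Tdrkh-/- and 0.0073% in Tdrkh+/- over 8 microRNAs, with Mir206 of muscle and Mir124-1 of the nervous system at 0 in both. The 3 microRNAs of meiotic and later germ cells (Mir34b, Mir34c and Mir449a) summed to 0.00757% and 0.0267%, and their part in the results below was not tested. They did not go one way, since Mir34c had 119 reads in Tdrkh-/- and 549 in Tdrkh+/-, Mir34b 21 and 43, but Mir449a 48 and 37.

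Klf13 had far fewer piRNA-size reads and more long reads in Tdrkh-/-. Sense reads of 24 to 30 nt numbered 15742 in Tdrkh-/- and 163291.5 in Tdrkh+/-, where fractions arise because a read in several genes was divided equally among them. Per 1000 microRNA reads these were 6.34 in Tdrkh-/- and 69.2 in Tdrkh+/-, 10.9-fold lower in Tdrkh-/- (log2 ratio of Tdrkh-/- to Tdrkh+/- -3.45, interval -3.47 to -3.42). In whole testes, fewer cells that make these RNAs and less RNA per cell cannot be told apart. Long reads of 31 to 37 nt numbered 19379 in Tdrkh-/- and 9397.5 in Tdrkh+/-, which is 7.81 and 3.98 per 1000 microRNA reads (log2 ratio 0.97, 0.93 to 1.01). Over 24 to 40 nt together Klf13 had 15.4 reads per 1000 microRNA reads in Tdrkh-/- and 73.3 in Tdrkh+/-. The log2 ratio was -2.25 (-2.27 to -2.23). Among exact matches of these lengths, the long reads did not make up in number for the scarcity of piRNA-size reads. Longer RNAs are not listed, although at 40 nt there were still 872.5 reads in Tdrkh-/- and 95 in Tdrkh+/-. Whether longer or inexactly matching reads would narrow the gap was not tested.

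The longest and shortest reads were higher in Tdrkh-/-. At 38 to 40 nt there were 3131.5 reads in Tdrkh-/- and 305 in Tdrkh+/- (log2 ratio 3.29, 3.12 to 3.46). At 18 to 23 nt there were 668 reads in Tdrkh-/- and 483 in Tdrkh+/- (log2 ratio 0.39, 0.22 to 0.57), a difference that turned to -0.03 per read listed and -0.18 per transcript-matching read. Between 24 and 40 nt, Tdrkh-/- reads averaged 31.3 nt and Tdrkh+/- reads 27.2 nt, with SDs over reads of 3.95 and 1.51 nt. The commonest length was 27 nt in both, but it took 11.0% of these reads in Tdrkh-/- and 41.7% in Tdrkh+/-. The part over 30 nt was 58.8% for Tdrkh-/- and 5.61% for Tdrkh+/-. By single lengths the log2 ratio was lowest at 26 nt (-4.18) and 27 nt (-4.17), -0.12 at 30 nt and highest at 36 nt (4.06). It did not climb steadily, since at 31 nt it was -0.69, with 1.70 reads per 1000 microRNA reads in Tdrkh-/- and 2.74 in Tdrkh+/-, where the median over host genes was 0.60.

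**Figure D1:**
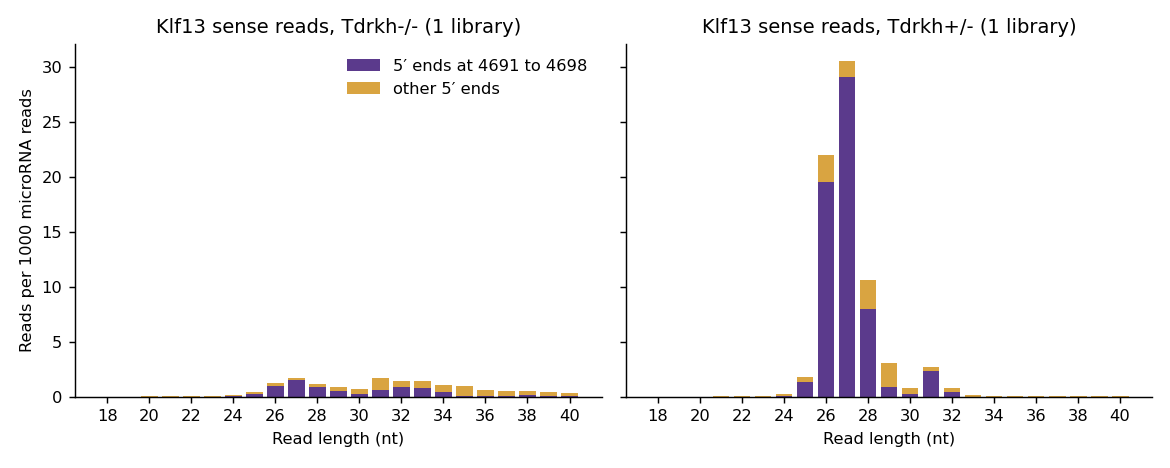
Sense reads of Klf13 at each length from 18 to 40 nt (x axis, nt), in reads per 1000 microRNA reads (y axis), in the Tdrkh-/- library (left) and the Tdrkh+/- library (right). Bars are stacked into reads whose 5′ ends lie at positions 4691 to 4698 and all others; the peak at 27 nt reached 30.6 in Tdrkh+/-, against 1.70 in Tdrkh-/-, where reads spread up to 40 nt.

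The reads came from the 3′ UTR in both genotypes. Of the piRNA-size reads on the reference transcript, 99.6% in Tdrkh-/- and 99.7% in Tdrkh+/- began in the 3′ UTR, which holds 80.7% of its bases when counted from the stop codon on. Of the long reads, 99.2% in Tdrkh-/- and 99.4% in Tdrkh+/- did so. The coding region, bases 370 to 1236, gave 43 piRNA-size reads in Tdrkh-/- and 368 in Tdrkh+/-, and the 5′ UTR gave 13 and 146. The 5′ UTR held 108 long reads in Tdrkh-/- and 14 in Tdrkh+/-. Within the 3′ UTR, piRNA-size reads were unevenly spread, as 2 single 5′ ends (4696 and 4697) held over 50% of them in each library.

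A run of 8 adjacent 5′ ends, 4691 to 4698, held most of the piRNA-size reads. It is the stretch around the commonest 5′ end in which every position had at least 200 reads of 24 to 30 nt in Tdrkh+/-, and it was defined after the values were seen. The weakest position inside, 4692, had 222 such reads and the position just outside, 4699, had 167. From the first of these starts to the commonest last base, 4722, it covers chr7:63888025-63888056, and 4722 lies 3483 nt past the stop codon and 1674 nt before the end of the transcript. The run took 70.8% of the piRNA-size reads in Tdrkh-/- and 85.6% in Tdrkh+/-, and 37.3% and 70.3% of the long reads.

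The length classes differed between the genotypes in another way inside the run than outside it. Inside it, piRNA-size reads numbered 11141 in Tdrkh-/- and 139726 in Tdrkh+/- (log2 ratio -3.72, -3.75 to -3.69), while long reads numbered 7233 and 6609 (0.06, 0.01 to 0.10, which turns negative when scaled per read listed). Outside it, piRNA-size reads numbered 4601 in Tdrkh-/- and 23565.5 in Tdrkh+/- (-2.43, -2.48 to -2.38), while long reads numbered 12146 and 2788.5 (2.05, 1.99 to 2.11). Over 24 to 40 nt the log2 ratio was -3.01 (-3.04 to -2.99) inside the run and -0.55 (-0.57 to -0.52) outside it. The run was chosen by its high Tdrkh+/- counts and over 24 to 40 nt it held 49.8% of Klf13 reads for Tdrkh-/- and 84.6% for Tdrkh+/-, and a choice of this kind lowers the ratio inside against that outside. Reads of the run averaged 29.7 nt for Tdrkh-/- and 27.0 nt for Tdrkh+/-, and those outside it 32.95 and 28.1 nt.

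**Figure D2:**
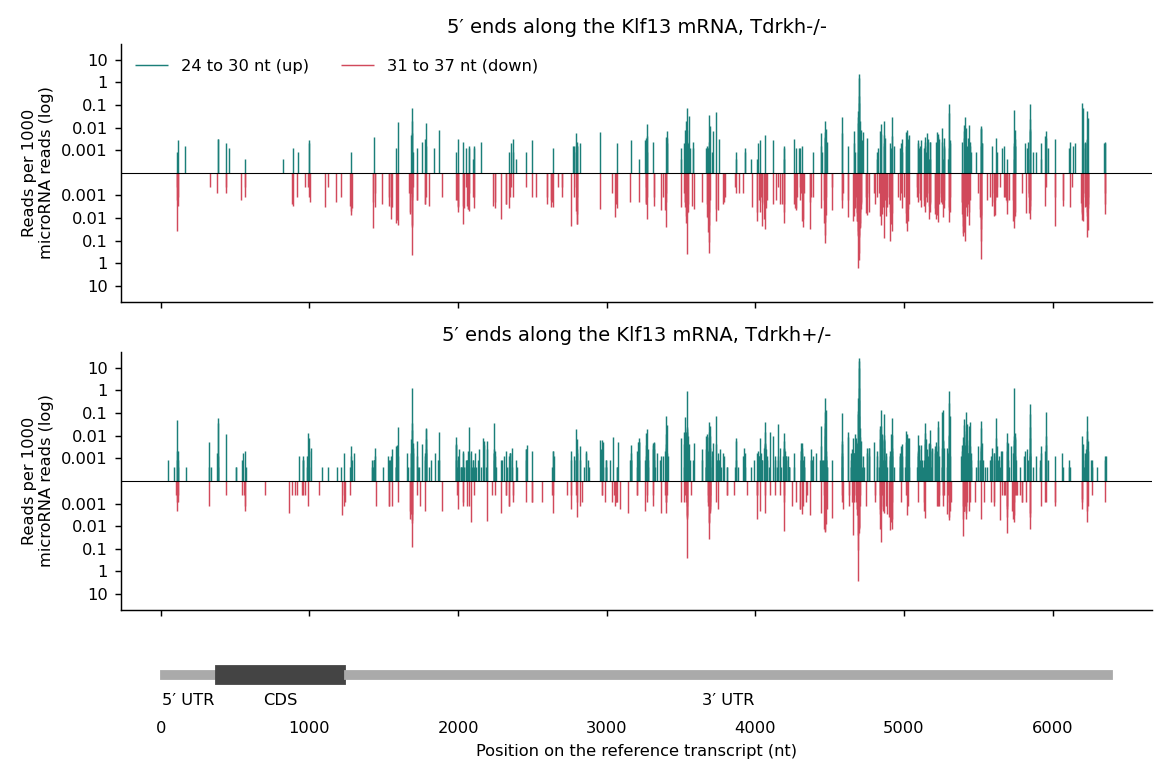
Reads per 1000 microRNA reads (y axis, log scale, 24 to 30 nt upward and 31 to 37 nt downward) by position of their 5′ end on the Klf13 reference transcript (x axis, nt), in Tdrkh-/- (above) and Tdrkh+/- (below), with the 5′ UTR, coding region (CDS) and 3′ UTR drawn to scale. The tallest peak in both libraries is the run at 4691 to 4698, and 99.6% of piRNA-size reads in Tdrkh-/- and 99.7% in Tdrkh+/- began in the 3′ UTR.

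Fewer piRNA-size and more long reads were found along most of the messenger RNA. Of 26 windows of 250 nt, 23 had fewer piRNA-size reads per microRNA read in Tdrkh-/-, 24 had more long reads, and 22 had both. The window from 1001 to 1250, with 0 piRNA-size reads in Tdrkh-/- and 15 in Tdrkh+/-, is left out of all 3 counts. Both differences were likewise found for 84.8% of the 4125 host genes with 500 or more piRNA-size reads, so they are not particular to Klf13. Some windows held few reads, such as that from 251, with 6 long reads in Tdrkh-/- and 4 in Tdrkh+/-. Per read listed, the long reads of the windows from 751 and from 4501, at log2 ratios of 0.41 and 0.09, turn negative. The clearest exception was the window from 6001 to 6250, with 750 piRNA-size reads in Tdrkh-/- and 316.5 in Tdrkh+/- (log2 ratio 1.17). It holds the 10 sequences that also match Tanc2, which had 1089 reads in Tdrkh-/- and 78 in Tdrkh+/- over all lengths. After division between genes, the 5′ end at 6200 alone gave 302.5 and 23 of the window's piRNA-size reads. The ratio of this window without the shared sequences was not calculated, so the window is not shown to be an exception in reads of Klf13 alone. The last window, from 6251, had 16 piRNA-size reads in Tdrkh-/- and 14 in Tdrkh+/-.

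Within the run the genotypes shared their starts more than their 3′ ends. Of the run's reads between 24 and 40 nt, position 4696 held 35.7% in Tdrkh-/- and 43.9% in Tdrkh+/-, and position 4697 held 32.4% and 31.2%. Position 4695 held 4.35% in Tdrkh-/- and 16.7% in Tdrkh+/-, and position 4691 held 21.9% and 4.58%. The last base lay at 4722 for 32.4% in Tdrkh-/- and for 79.1% in Tdrkh+/-. The share that went past 4722 was 55.0% (54.3 to 55.7%) in Tdrkh-/- and 5.06% (4.94 to 5.17%) in Tdrkh+/-, so in Tdrkh-/- most reads of the run ended beyond the base that ended most reads in Tdrkh+/-.

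Most 3′ ends beyond 4722 fell into a near and a far group in Tdrkh-/-. Ends 1 or 2 nt beyond it made up 31.6% of the run in Tdrkh-/- and 4.03% in Tdrkh+/-. Ends 3 or 4 nt beyond were fewer, with 3.28% and 1.22% at single positions in Tdrkh-/-. Ends 5 to 7 nt beyond, at 4727 to 4729, made up 13.2% (12.7 to 13.7%) in Tdrkh-/- and 0.095% (0.0805 to 0.112%) in Tdrkh+/-. The base after 4728 in the transcript is U, and that after 4722 is A.

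**Figure D3:**
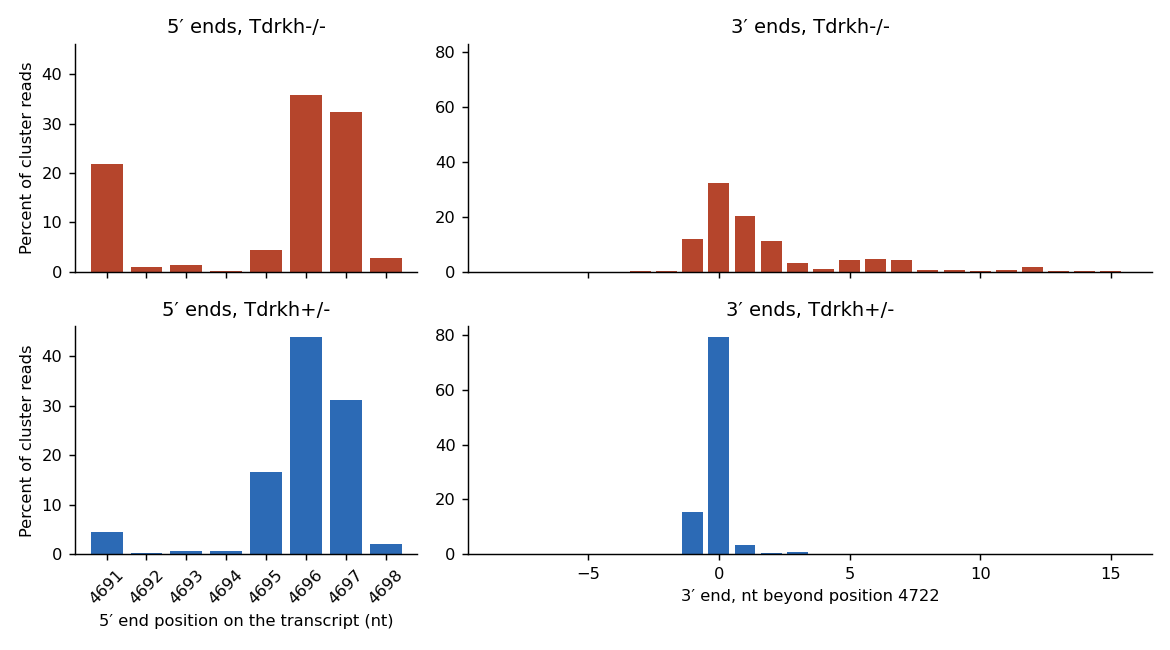
Share of the 24 to 40 nt reads of the run (y axes, percent) by 5′ end position (left panels, nt on the transcript) and by distance of the 3′ end beyond position 4722 (right panels, nt), in Tdrkh-/- (above) and Tdrkh+/- (below). The 5′ ends at 4696 and 4697 were the commonest in both, whereas 3′ ends at distance 0 made up 32.4% in Tdrkh-/- and 79.1% in Tdrkh+/-.

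Single isoforms show where the 3′ ends lay. The sequence from 4697 to 4728, 32 nt long, had 612 reads in Tdrkh-/- and 3 in Tdrkh+/-. At 4691, where even Tdrkh+/- reads were long, the 31-nt sequence ending at 4721 had 678 reads in Tdrkh-/- and 5327 in Tdrkh+/-. The 33-nt sequence from 4691 to 4723 had 1298 reads in Tdrkh-/- and 7 in Tdrkh+/-. Position 4691 alone gave 6415 of the 9397.5 long reads of Tdrkh+/-, so most long Klf13 reads of the controls came from a single start whose reads mostly ended 1 nt before 4722, and it gave 4027 of the 19379 long reads of Tdrkh-/-. At this end the log2 ratio was -0.75 at 31 to 37 nt, while at 4697 it was 5.67 (1773 reads in Tdrkh-/- and 33 in Tdrkh+/-) and at 4696 4.82 (830 and 28).

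The piRNA-size reads of single 5′ ends were lower in Tdrkh-/- wherever they were frequent in Tdrkh+/-. Of the 25 ends with at least 200 such reads in Tdrkh+/-, 25 were at least 2-fold lower in Tdrkh-/- (median log2 ratio -3.56, highest -1.17). The minimum was set on the Tdrkh+/- reads, which leaves out ends that are high in Tdrkh-/- alone, and 72.0% of host genes with 500 or more piRNA-size reads were likewise lower by 2-fold or more. The lowest was 5260, with 1 read in Tdrkh-/- and 317 in Tdrkh+/- (-8.38, -13.69 to -5.89). The highest were 5847, with 273 reads in Tdrkh-/- and 584 in Tdrkh+/- (-1.17), 5302, with 286 and 638 (-1.23), and 4580, with 72 and 234 (-1.77).

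At some ends outside the run the commonest last base lay farther downstream in Tdrkh-/-. At 1692, piRNA-size reads numbered 189 in Tdrkh-/- and 2923 in Tdrkh+/- (-4.02), and long reads 1020 and 205 (2.24). Its commonest last base was 1722 in Tdrkh-/-, with 49.6% of the reads of that end, and 1719 in Tdrkh+/-, with 91.8%. At 5516, piRNA-size reads numbered 30 in Tdrkh-/- and 103 in Tdrkh+/-, and long reads 1585 and 12 (6.97), the widest gap at 31 to 37 nt among the ends named. Its commonest last base was 5550 in Tdrkh-/- with 65.4% and 5543 in Tdrkh+/- with 71.3%.

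Other ends differed less or less sharply in their last base. At 5739, the last base 5767 was the commonest in both, with 50.5% of reads in Tdrkh-/- and 96.8% in Tdrkh+/-, and piRNA-size reads numbered 151 and 3018 (-4.39). At 3540 the 3′ ends were spread in Tdrkh-/-, where the commonest, 3576, held 15.8% of reads, against 62.4% at 3565 in Tdrkh+/-, and long reads numbered 966 and 632 (0.54). At 4580 reads had a mean length of 26.4 nt in both genotypes and no long reads were found in either, a limit of 3 reads each. Among starts within 4 nt of 1692, that base held 87.0% of reads for Tdrkh-/- and 94.1% for Tdrkh+/-, so the starts there were sharp in both. Starts were less sharp in Tdrkh-/- at 5739, with 66.7% against 97.2% in Tdrkh+/-, and at 4580, with 57.1% against 86.0%. The order was reversed at 5516, with 77.7% in Tdrkh-/- and 61.5% in Tdrkh+/-, and also at 5847. Around 5260 the commonest start was 5262 in Tdrkh-/-, with 35.6%, and 5260 in Tdrkh+/-, with 51.8%.

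Reads were longer in Tdrkh-/- at single 5′ ends. All 41 ends with at least 50 reads of 24 to 40 nt in each library had the greater mean length in Tdrkh-/-, by a median of 2.95 nt and a range of 0.0214 to 9.01 nt. The medians over these ends were 31.6 nt in Tdrkh-/- and 28.2 nt in Tdrkh+/-. The smallest, at 4580, where the libraries had 72 and 234 reads, is not a difference that this depth can show. Over the 33 ends outside the run the median difference was 3.52 nt, and over the 8 inside it 1.87 nt. These ends share a messenger RNA and are not replicates. The whole libraries differed the same way, with 31 to 37 nt reads making up 53.2% in Tdrkh-/- and 15.2% in Tdrkh+/-. Single ends of other genes were not compared, so the count does not set Klf13 apart.

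**Figure D4:**
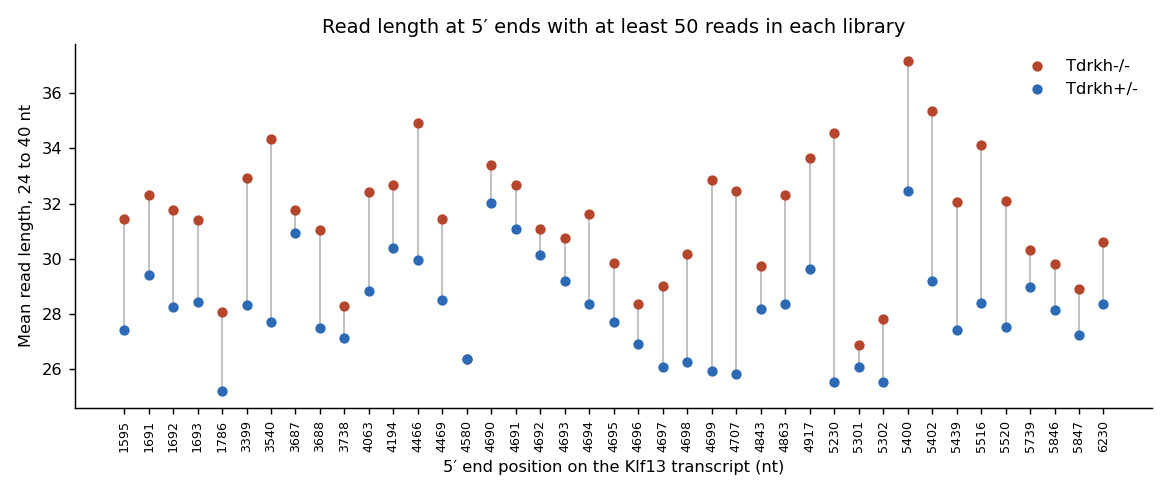
Mean length of reads of 24 to 40 nt (y axis, nt) at the 41 5′ ends of Klf13 with at least 50 reads in each library (x axis, position on the transcript), with Tdrkh-/- in red and Tdrkh+/- in blue joined by a line. The Tdrkh-/- mean lies above the Tdrkh+/- mean at each end, from 0.0214 nt at 4580 to 9.01 nt.

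The long reads of Tdrkh-/- began where piRNA-size reads of Tdrkh+/- began. Of the long Tdrkh-/- reads on the transcript, 93.2% started at a base where a Tdrkh+/- read of 24 to 30 nt also started, compared with 64.9% as the median over starts shifted by 1 to 10 nt and 82.9% at the highest. Outside the run 89.2% did so, compared with 43.5% and 71.7% for shifted starts. Shared starts with piRNA-size reads of their own Tdrkh-/- library were found for 82.5%, against a shifted median of 41.1%.

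The 5′ ends carried the U of primary piRNAs in both genotypes. U was the first base of 93.0% of piRNA-size reads in Tdrkh-/- and 95.2% in Tdrkh+/-, and of 91.2% and 94.9% of long reads, where U makes up 23.1% of the transcript's bases. Counting distinct sequences in place of reads, the piRNA-size shares were lower and in the reverse order, at 72.6% in Tdrkh-/- and 62.6% in Tdrkh+/-. Over the whole libraries U led 75.7% of piRNA-size reads for Tdrkh-/- and 82.8% for Tdrkh+/-. A was found at position 10 in 72.2% of piRNA-size Klf13 reads in Tdrkh-/- and 71.9% in Tdrkh+/-. That share was set by the run, in which the sequences from 4696 and 4697 printed above have A there. Outside the run it was 26.8% in Tdrkh-/- and 26.7% in Tdrkh+/-, where A makes up 21.5% of the transcript's bases. Inside the run it was 90.9% in Tdrkh-/- and 79.5% in Tdrkh+/-, where the sequence from 4695, without A there, was commoner. Among long Klf13 reads A at position 10 was less frequent in Tdrkh-/-, with 55.8% (55.1 to 56.5%), against 76.7% (75.8 to 77.5%) in Tdrkh+/-. Inside the run it was 93.6% in Tdrkh-/- and 98.0% in Tdrkh+/-, and outside the run 33.2% and 26.2%. The gap between the whole-gene shares was thus wider than either, with 37.3% of long reads in the run in Tdrkh-/- and 70.3% in Tdrkh+/-.

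The base that followed the 3′ end differed between the genotypes. The next transcript base was U after 43.3% (42.6 to 44.0%) of long reads in Tdrkh-/- and 8.03% (7.49 to 8.59%) in Tdrkh+/-. Outside the run the shares were 55.6% and 26.2% at 31 to 37 nt, and 53.7% and 19.4% for piRNA-size reads. Counting distinct sequences in place of reads, the shares for the long class were 39.4% (36.1 to 42.8%) in Tdrkh-/- and 34.7% (30.5 to 39.3%) in Tdrkh+/-, intervals that overlap. For the piRNA-size class the distinct shares lay apart, at 39.5% (35.1 to 44.0%) in Tdrkh-/- and 27.4% (25.2 to 29.7%) in Tdrkh+/-, and at 41.8% and 27.9% outside the run. Outside the run, another 5′ end of the same library began directly at the next base for 17.8% of long reads in Tdrkh-/- and 24.1% in Tdrkh+/-, where 10.6% and 15.4% of all transcript positions were starts. For piRNA-size reads the order was the other way, with 22.1% in Tdrkh-/- and 14.9% in Tdrkh+/-.

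Klf13 had almost no antisense reads. They numbered 4 in Tdrkh-/- and 3 in Tdrkh+/-, from 3 distinct sequences, against 39465 and 173516 sense reads. No antisense read overlapped a sense read of its library by 10 nt, the overlap of piRNAs that cut one another's precursors, and so few reads show little about such pairs.

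A further signal lay in reads that matched the transcript except at their last base. For the run these made up 8.02% (7.66 to 8.40%) of reads in Tdrkh-/-, 1646 reads, and 0.364% (0.335 to 0.396%) in Tdrkh+/-, 535 reads. The unmatched base was A in 75.4% of these in Tdrkh-/- and 12.9% in Tdrkh+/-. An A after position 4728, where the transcript has U, accounted for 1129 reads in Tdrkh-/- and 1 in Tdrkh+/-, beside 871 and 15 exact reads that ended at 4728. Outside the run 6.88% (6.54 to 7.24%) in Tdrkh-/- and 2.37% (2.19 to 2.55%) in Tdrkh+/- had an unmatched last base, and there U was the commonest with 68.8% and 50.9%. Base additions, sequencing error and differences between the strain and the reference sequence were not tested as sources.

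Against other host genes, Klf13 lay near the low end for piRNA-size reads and below the median for long ones. The background was 4125 hosts, coding or long noncoding, that had 500 or more piRNA-size reads in the libraries together. At 24 to 30 nt, 72.0% of them were lower by 2-fold or more in Tdrkh-/- and 6.18% higher by as much, and at 31 to 37 nt 77.9% were higher and 1.21% lower. With no fold required, 84.8% were lower at 24 to 30 nt and higher at 31 to 37 nt, Klf13 among them, although its 0.97 at 31 to 37 nt is just short of 2-fold. The median log2 ratio was -1.56 at 24 to 30 nt, where Klf13 stood at percentile 2.74 with 113 genes below it, and 1.74 at 31 to 37 nt, where it stood at percentile 20.9. Over 24 to 40 nt the median was -0.01 with 13.6% of genes lower by 2-fold or more and 14.5% higher, and there Klf13 stood at percentile 1.82 with 75 genes below it. Without the run its log2 ratio of -0.55 would stand at percentile 26.3, a value raised by leaving out ends that were chosen as high in Tdrkh+/-, as no other gene had ends left out.

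**Figure D5:**
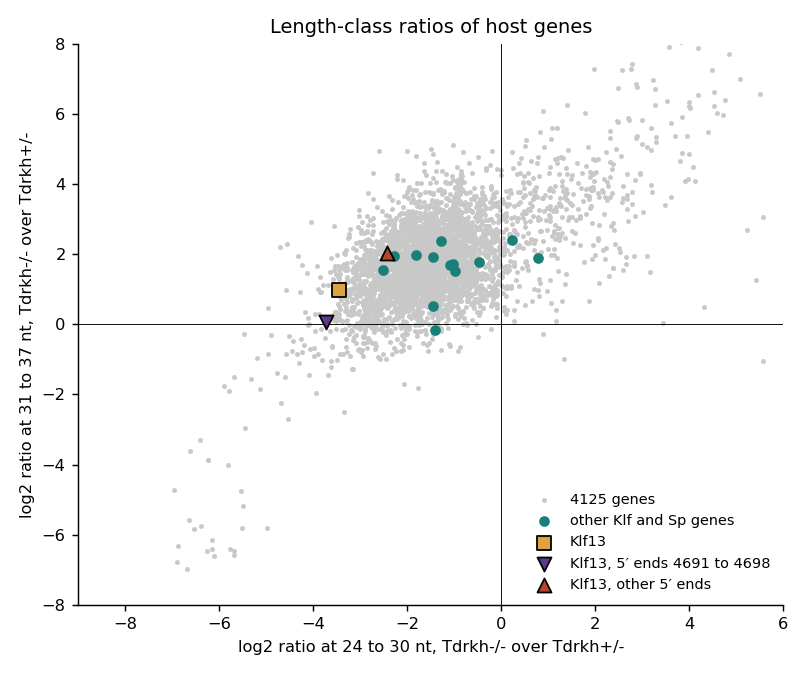
Log2 ratio of Tdrkh-/- to Tdrkh+/- per microRNA read at 24 to 30 nt (x axis) and at 31 to 37 nt (y axis) for the 4125 background genes (grey, of which 16 lie outside the axes), the other Klf and Sp genes with at least 100 such reads (green), and Klf13 as a whole, its run of 5′ ends at 4691 to 4698 and its other 5′ ends (large symbols). Klf13 as a whole lies at -3.45 and 0.97, its run at -3.72 and 0.06 and its other 5′ ends at -2.43 and 2.05.

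Klf13 was among the most abundant hosts per length in Tdrkh+/-. Per kilobase of transcript it had 2461 piRNA-size reads in Tdrkh-/-, rank 114 of the 4125 genes, and 25530 in Tdrkh+/-, rank 6. The 10 commonest 5′ ends held 79.2% of its piRNA-size reads in Tdrkh-/- and 91.7% in Tdrkh+/- when sequences of Klf13 alone were counted. The medians over genes with at least 100 such reads were 63.7% in Tdrkh-/- and 53.0% in Tdrkh+/-. Above Klf13 lay 684 of 3083 genes in Tdrkh-/- and 136 of 3509 in Tdrkh+/-. Long reads were less concentrated in Tdrkh-/-, with 61.9% in the top 10 ends, against 84.9% in Tdrkh+/-. The medians over genes were 58.7% and 53.8%, and 1467 of 3432 genes lay above Klf13 in Tdrkh-/-, against 195 of 2530 in Tdrkh+/-. In Tdrkh+/- the single end 4691 held 68.3%.

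Genes with the ratios most like those of Klf13 over the 14 lengths from 24 to 37 nt, by Euclidean distance of log2 ratios among 2941 genes, were Tsc1 (2.23), Spcs3 (2.32), Vsir (2.34), Zfp740 (2.35) and Klf7 (2.45), against a median distance of 5.78. The comparison rests on the 2 libraries alone. Tsc1, which encodes hamartin, an inhibitor of mTOR signalling, had 924 piRNA-size reads in Tdrkh-/- and 6692 in Tdrkh+/- (log2 ratio -2.93), and 3351 and 1001 long reads (1.67). Zfp740, a zinc finger gene, had 5488 and 28689 piRNA-size reads (-2.46) and 5363 and 1541 long reads (1.73). Spcs3, a signal peptidase subunit, stood at -1.95 and 2.03, and Vsir, which encodes the immune checkpoint protein VISTA, at -2.35 and 2.52.

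The relatives of Klf13 had fewer piRNA-size reads per kilobase. Most of them, like most host genes, had fewer piRNA-size and more long reads in Tdrkh-/-. The family of Krüppel-like (Klf) and Sp transcription factors, which share 3 zinc fingers at the C terminus, had 26 annotated members, of which 14 held 100 or more piRNA-size reads in the libraries together. In Tdrkh-/-, 10 of these 14 were lower by 2-fold or more at 24 to 30 nt and 11 were higher by as much at 31 to 37 nt, against 72.0% and 77.9% of all genes. Their medians were -1.35 and 1.75, against -1.56 and 1.74 over all genes. The 14 include Klf13, which was selected on such values. Without it 9 of 13 were lower and 11 higher by 2-fold or more, with medians of -1.28 and 1.78. The minimum of 100 reads differs from the 500 set for all genes.

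Sp1, the founding member of the Sp genes, had 3391 piRNA-size reads in Tdrkh-/- and 18489 in Tdrkh+/- (-2.52), which is 437 and 2384 per kilobase. Klf7, known for its part in neuron growth, had 3301 and 11043 (-1.82), or 431 and 1441 per kilobase. Both were below Klf13 in reads per kilobase in each library. Klf11, Klf16, Klf10, Klf3, Klf8, Sp4 and Sp3 lay between -2.28 and -0.99, and Klf4, a pluripotency factor, at -0.48.

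Klf9, known as a gene induced by thyroid hormone, was higher at both lengths, with 929 piRNA-size reads in Tdrkh-/- and 513 in Tdrkh+/- (0.78) and 600 and 153 long reads (1.90). Klf6, with 59 and 48 piRNA-size reads (0.22), turned negative per read listed. Klf12 had -1.42 at 24 to 30 nt and -0.17 at 31 to 37 nt, but 7.61% of its piRNA-size reads came from sequences of a single gene. The 12 other members had 63 reads or fewer in the libraries together.

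The genes beside Klf13 had few reads. Of 11 annotated genes within 200 kb, 0 reached 100 reads of 24 to 30 nt in the libraries together, and the highest was Otud7a, a deubiquitinase gene, with 51.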

How the data were processed

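Per the labels, RNAs between 15 and 40 nt were cut from a gel and sequenced on an Illumina Genome Analyzer II. Each deposited table lists distinct sequences, here of 18 to 40 nt, with the read count of each, which the authors did not normalize. The submitters' processing notes name Bowtie and mm9. The trimming of adapters, any filters and the version of Bowtie were not given in the sources used here. No genome was used: sequences were matched to GENCODE M21 transcripts (GRCm38), exactly and on both strands, with Numba 0.67.0 in Python 3.11.15. Tables were made with pandas 2.3.3, intervals with SciPy 1.17.1 and NumPy 2.4.6, and figures with Matplotlib 3.10.9. Sequences with errors or untemplated bases are therefore lost, except where stated. A plain string search on 60 sequences found 0 strands that differed. A transcript was matched by 51.5% of reads in Tdrkh-/- and 46.4% in Tdrkh+/-.

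Structural RNA genes were set aside. The depth is 60973266 reads in Tdrkh-/- and 43172204 in Tdrkh+/-, and levels are per microRNA read. Positions refer to the longest protein-coding Klf13 transcript (ENSMUSG00000052040.10, chromosome 7, 63886351 to 63938915, minus strand, 2 exons), and 52 sense reads lay off it. Ratios carry exact conditional binomial and shares Wilson intervals at 95%, and their calculation was checked on simulated counts of 4407 genes without variation between libraries: 100 of 100 genes raised and 100 of 100 lowered 4-fold passed the 2-fold mark, 0 unchanged genes did, and 95.4% of intervals held the true ratio. A count of 0 allows up to 3 counts.

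The members and lists were chosen with earlier results of these data known. Named 5′ ends are the 5 with most piRNA-size reads in each library, the 5 with most long reads in Tdrkh-/- and, among those with at least 200 reads in Tdrkh+/-, the 3 highest and 3 lowest. Named genes are Klf13, Tdrkh, family members and neighbours with at least 100 reads, and the 5 most alike, with at least 90% of reads in sequences of 1 gene and a pseudocount of 1 read. Otud7a and the isoforms of the run were chosen after their values were seen. Alternatives were other scalings, distinct sequences, sequences read once left out, sequences of Klf13 alone or of both libraries, other windows and minimums, and ends left out.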

Additional observations from a re-analysis of the deposited data

Results flagged for a closer look

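Reads with an unmatched last base lay outside the exact matches that the comparisons use, and their share in the run of 5′ ends at 4691 to 4698 was higher in Tdrkh-/- (8.02%) than in the Tdrkh+/- controls (0.364%).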

How the results depend on the processing

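Values below are log2 ratios of Tdrkh-/- to Tdrkh+/- or, for shares, differences in percentage points, and of 72 alternatives 21 moved by less than the counting interval (or, for counts of genes, by less than 1.5 times), 45 by more, and 6 changed sign. With 1 library per genotype this interval is narrow, and the cause of a move was not tested.

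The ratio of -3.45 at 24 to 30 nt was -3.87 per read listed, -4.02 per transcript-matching read, -1.80 with each distinct sequence counted once, -3.49 with sequences of Klf13 alone, -3.48 with sequences of both libraries, -3.40 without the top 5′ end and -3.94 at 26 to 28 nt. The ratio of 0.97 at 31 to 37 nt was 0.55, 0.40 and 0.77 for the first 3 of these, 0.68 with sequences of both libraries, 0.91 without the top end and 3.46 at 33 to 36 nt. At 24 to 40 nt, -2.25 was -2.68, -2.82 and -0.54 for those 3, then -2.27 with sequences of Klf13 alone, -2.49 with sequences of both libraries and -1.86 without the top end.

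At 18 to 23 nt, 0.39 turned to -0.030 per read listed, -0.18 per transcript-matching read and -0.68 by distinct sequences, and was 0.59 without sequences read once and 0.98 with sequences of both libraries. At 38 to 40 nt, 3.29 was 2.86, 2.71, 0.86, 3.598 and 3.07 in the same order. The log2 change in the ratio of long to piRNA-size reads, 4.42, was 2.55 by distinct sequences and 4.31 without the top end.

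The difference in 3′ UTR share, -0.0411, turned to 0.780 by distinct sequences and was -10.01 on the next transcript, which had 14 and 107 reads. By distinct sequences and without the top end, the 5′ U difference of -2.16 became 10.01 and -3.17, that of A at position 10, 0.243, became 6.89 and 1.95, and that of a following U, 35.3, became 4.66 and 36.4. The excess of shared starts over shifted ones, 28.3 points, was 32.04 by distinct sequences, 35.3 without sequences read once and 31.5 without the top end. With a minimum of 100 reads, 7268 of 10423 genes were at least 2-fold lower, against 2972 of 4125.

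Leaving out the run of 5′ ends at 4691 to 4698, chosen after seeing the data, gave -2.43 at 24 to 30 nt, 2.05 at 31 to 37 nt, 3.02 at 38 to 40 nt, -0.55 over 24 to 40 nt, 4.48 for the change in length ratio, 0.964 for the 3′ UTR share, 29.4 for a following U and 45.7 for shared starts. Scaling per read listed shifts every ratio by -0.42 and per transcript-matching read by -0.57. No paired analysis was possible because each genotype had 1 library.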
